A study of Drosophila melanogaster with 10 samples.

Results

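The pericentromeric heterochromatin of chromosome arm 3L was examined here through its short-range contacts, those between pairs of different 10 kb bins less than 200 kb apart. All pairs whose bins both start at or above position 22955576 of chr3L (dm3) were taken, each once, with no score used in the choice. This gave 2831 bin pairs among 159 bins, out of 40796 bin pairs of all arms in the series. The first bin starts at 22956370 and the last bin ends at 24543557, and positions below are given in kb from the first bin. Contacts had been measured by 5C (chromosome conformation capture carbon copy) in S2 cells, an embryo-derived Drosophila melanogaster line. The 9 libraries analysed here were 3 of untreated cells (WT), 2 of cells given dsRNA against EGFP (mock RNAi), 2 of HP1a RNAi and 2 of Su(var)3-9 RNAi, the RNAi cells being cultured for 3 days with the dsRNA. All came from 1 cell line with no other genotype named. The methods call the 3 WT libraries biological replicates and state that the RNAi experiments were done in duplicate. 5C scores do not show how far either protein was depleted, so the knockdown could not be checked in these values.

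HP1a is the chromatin protein that binds histone H3 methylated on lysine 9, and Su(var)3-9 is one of the methyltransferases that writes that mark. Both were found as suppressors of position-effect variegation and are concentrated in the heterochromatin around centromeres. This chromatin is rich in transposons and repeats, yet it holds active genes, some of which depend on the heterochromatic environment for their expression. In a 5C experiment, a forward and a reverse primer anneal to the ends of restriction fragments that were ligated together while crosslinked in the nucleus, so that a ligated primer pair reports a contact.

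The contacts of this region were read with 157 primers on chr3L, 83 forward and 74 reverse. Each carried 3 bases of the EcoRI site GAATTC at the end that is joined, and 4 of them are shown because that junction is what every score counts. With the tails for amplification removed, the 2 forward primers end and the 2 reverse primers start with the bases in capitals.
Forward primer of fragment 236: aggagattcctacaccataaagggactGAA
Forward primer of fragment 542: aggcttgtaccttatcttgcgaagtttGAA
Reverse primer of fragment 223: TTCggaccggtatgtaaacatgatgcagaa
Reverse primer of fragment 544: TTCaatccaggccatatgcgaccggtaaaa
These 3 site bases were present in all 83 forward and all 74 reverse primers. The fragment numbers 542 and 544 are the highest of each kind on the arm. Which bin each primer belongs to was not worked out here.

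The deposited score of a bin pair is a log2 ratio of observed to expected contacts, where expected depends on distance, so that 0 is the expected level and a positive score is a contact more frequent than expected. Scores equal to 0 were treated as missing values. Of the 2831 pairs, 2764 had a value in 8 libraries, and 64 had none in any of these 8. The latter all lie between 1380 and 1590 kb. A single library, Su(var)3-9 RNAi replicate 2, stood apart, with a value for 38 of the pairs, all within the first 210 kb. It is given apart from the other 8 libraries throughout. The authors smoothed the scores, and a library held 806 to 965 distinct values over its 2764 to 2767 pairs, so that neighbouring pairs often shared 1 value and are not independent measurements. The files hold scores and no counts, so the depth behind a score is not known from them and no counting interval can be given.

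Short-range contacts of the region were below expectation in every library, and least so in HP1a RNAi. The median score was -0.37, -0.33 and -0.58 in the WT libraries and -0.63 and -0.62 for mock RNAi. HP1a RNAi gave -0.33 and -0.24. The lowest of the 8 was Su(var)3-9 RNAi replicate 1, at -1.08. Both HP1a RNAi libraries therefore lay above both mock RNAi libraries, while the first of them equalled the highest WT library to 2 decimals. HP1a RNAi exceeded mock RNAi by 0.34 on the log2 scale (-0.28 ± 0.07 against -0.62 ± 0.01, SD, n = 2 each), which in a two-sided exact permutation test is p = 0.333, the smallest p that 2 libraries against 2 allow. Against the 5 WT and mock RNAi libraries together (-0.50 ± 0.14, SD, n = 5) the difference was 0.22, with exact permutation p = 0.19, where 0.0952 is the smallest possible. Mock RNAi itself lay 0.20 below WT (-0.42 ± 0.13, SD, n = 3; exact permutation p = 0.2, the smallest possible). None of these differences could reach the 0.05 threshold, and after Benjamini-Hochberg adjustment over the 11 such tests computed they had p = 0.611, 0.44 and 0.44 by the exact permutation test.

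**Figure D1:**
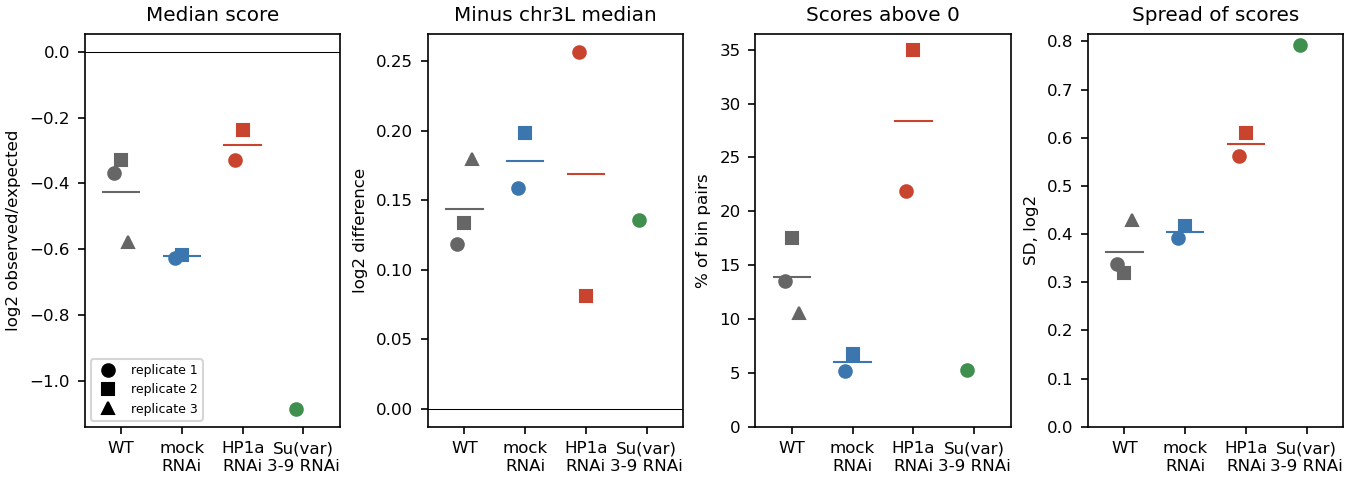
Values of each library over the chr3L bin pairs under 200 kb apart: the median score (log2 observed over expected), the median minus the chr3L median of the same library (log2 difference), the percentage of scores above 0 and the SD of the scores (log2). Points are libraries, lines are group means, and Su(var)3-9 RNAi is replicate 1 alone. HP1a RNAi has the highest group mean in the first panel, with libraries at -0.33 and -0.24, but spans 0.08 to 0.26 in the second, where it encloses all 5 WT and mock RNAi libraries.

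The offset was shared by the whole arm, and against mock RNAi it was not limited to this arm. The median difference per bin pair between HP1a and mock RNAi was 0.32 in this region and 0.34 over all pairs of all arms tested. The median over all chr3L bin pairs was -0.49, -0.46 and -0.76 for WT, -0.79 and -0.81 for mock RNAi, -0.59 and -0.32 for HP1a RNAi and -1.22 for Su(var)3-9 RNAi replicate 1. With this arm median subtracted, the short-range contacts of the region scored 0.12, 0.13 and 0.18 for WT, 0.16 and 0.20 for mock RNAi, 0.26 and 0.08 for HP1a RNAi, and 0.14 for Su(var)3-9 RNAi replicate 1. The HP1a RNAi libraries now lay on either side of all 5 controls. Their mean differed from that of WT and mock RNAi by 0.01 (exact permutation p = 0.857) and from mock RNAi alone by -0.01 (exact permutation p = 1). The same held against contacts of the same bins at 200 kb or more, which the short-range contacts exceeded by 0.17 to 0.26 in the 5 controls, by 0.34 and 0.14 for HP1a RNAi and by 0.22 for Su(var)3-9 RNAi replicate 1 (HP1a RNAi minus controls 0.02, exact permutation p = 0.667). Against chr2L contacts under 200 kb, the chr3L contacts differed by -0.51 to 0.09 in the controls, 0.09 and -0.05 for HP1a RNAi and -0.59 for Su(var)3-9 RNAi replicate 1. The groups overlapped, and the mean was 0.26 higher in HP1a RNAi than in the controls (exact permutation p = 0.19).

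HP1a RNAi libraries differed more in the spread of the scores than in their centred level. The SD over the bin pairs was 0.34, 0.32 and 0.43 for WT, 0.39 and 0.42 for mock RNAi, and 0.56 and 0.61 for HP1a RNAi, with no overlap between HP1a RNAi and the controls. It was 0.79 for Su(var)3-9 RNAi replicate 1. The difference between HP1a RNAi and the controls was 0.21 (exact permutation p = 0.0952, the smallest possible, adjusted p = 0.44 over the 11 permutation tests). A wider spread was also present outside these contacts. At 200 kb or more on the same bins the SD was 0.31 to 0.37 in the controls and 0.56 and 0.55 for HP1a RNAi, and on chr2L under 200 kb it was 0.40 to 0.51 against 0.56 and 0.65. Read numbers per library are given in a supplementary table of the study and were not used here, and the part of depth in the spread was not tested.

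More bin pairs passed 0, the level taken as a contact above expectation, after HP1a RNAi. The percentage of scores above 0 was 13.5, 17.5 and 10.6 for WT, 5.20 and 6.79 for mock RNAi, 21.9 and 35.0 for HP1a RNAi, and 5.28 for Su(var)3-9 RNAi replicate 1. Both HP1a RNAi libraries lay above all 5 controls, by 17.7 percentage points on average (exact permutation p = 0.0952, the smallest possible). Relative to each library's own arm median in place of 0, the difference turned to -6.43 points. Shares of positive scores over all arms are not given here. The median difference per bin pair between HP1a and mock RNAi was 0.32 in this region, beside 0.34 over all pairs tested. The counts below are therefore not shown to be particular to this region. In all, 56 pairs were positive in all 5 controls and 453 in both HP1a RNAi libraries, and 39 were in both lists, which is 69.6% of the first and 8.61% of the second. Of the 56 pairs, 34 were also positive in Su(var)3-9 RNAi replicate 1. They were not spread over the region, since 21 had their midpoint at 1100 to 1200 kb, 17 at 300 to 400 kb and 9 at 1200 to 1300 kb. In HP1a RNAi, 122 of the 190 pairs at 300 to 400 kb, 67 of 190 at 1200 to 1300 kb and 60 of 190 at 200 to 300 kb were positive in both libraries.

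Scores declined with distance between the bins, although they are relative to a distance expectation. At 10 to 40 kb the median score was -0.20, -0.23 and -0.39 for WT and -0.40 and -0.39 for mock RNAi. At 150 to 190 kb it was -0.50, -0.43 and -0.69 for WT and -0.77 and -0.76 for mock RNAi. The near class thus exceeded the far class by 0.21 to 0.37 in the 5 controls, and by 0.32 and 0.26 for HP1a RNAi, within that range. The mean difference between HP1a RNAi and the controls was -0.02 (exact permutation p = 0.857). Su(var)3-9 RNAi replicate 1 had nearly the same median at both ends, -1.09 and -1.13, a difference of 0.05 that was below that of the other 7 libraries. This difference was not tested.

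**Figure D2:**
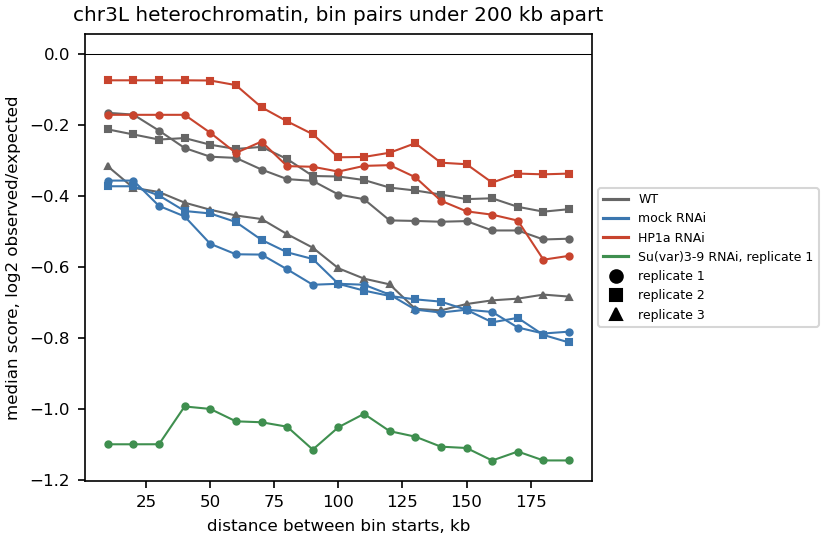
Median score (log2 observed over expected) of the chr3L heterochromatin bin pairs at each distance between bin starts from 10 to 190 kb, 1 line per library. The WT, mock RNAi and HP1a RNAi lines run downwards, with near minus far differences of 0.21 to 0.37, while the Su(var)3-9 RNAi replicate 1 line stays close to -1.1.

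Along the arm, contacts were densest in 2 stretches and sparsest towards the centromere. The arm was divided into 100 kb windows and a bin pair was placed by its midpoint. The highest control levels were at 200 to 300 kb (chr3L:23156370-23256370), with a mean of the window medians of -0.14 ± 0.18 (SD, n = 5), at 300 to 400 kb (chr3L:23256370-23356370), with -0.19 ± 0.24, and at 1200 to 1300 kb (chr3L:24156370-24256370), with -0.34 ± 0.17. The lowest were at 1500 to 1587 kb (chr3L:24456370-24543557), with -1.03 ± 0.13 over 26 pairs with a value, at 1400 to 1500 kb (chr3L:24356370-24456370), with -0.86 ± 0.26, and at 500 to 600 kb (chr3L:23456370-23556370), with -0.69 ± 0.15. All 5 controls were negative in the last 3 of these windows. The windows differed more from each other in HP1a RNAi, where the medians of a library spanned 1.33 and 2.31 against 0.79 to 1.05 in the controls. Without the last, thinly filled window the spans were 1.02 and 1.53 against 0.49 to 1.05, and the groups overlapped.

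**Figure D3:**
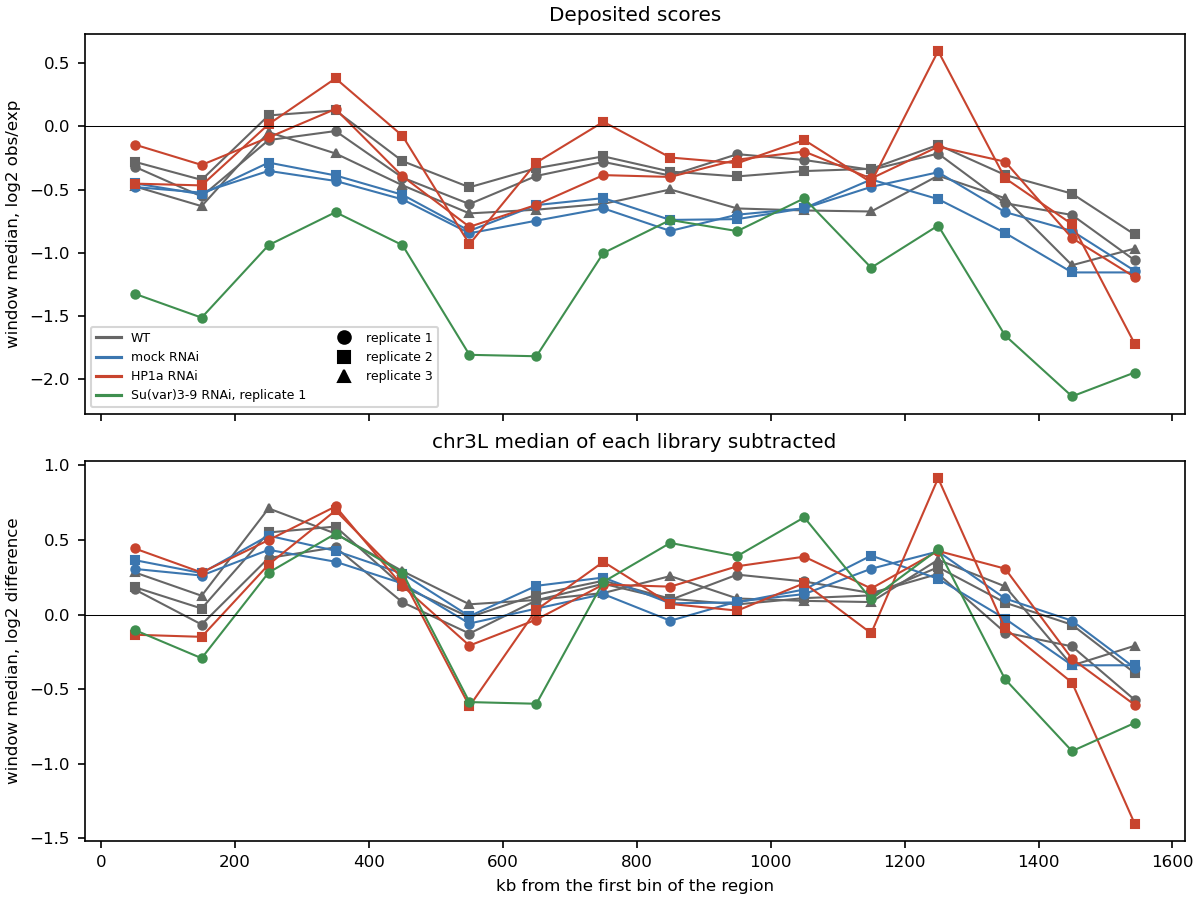
Median score of the bin pairs in each 100 kb window along the region, against the middle of the window in kb from the first bin, as deposited (log2 observed over expected, upper panel) and with the chr3L median of each library subtracted (log2 difference, lower panel). Each line is a library. The controls peak at 200 to 400 kb, and HP1a RNAi replicate 2 reaches 0.60 at 1200 to 1300 kb in the upper panel.

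The window at 300 to 400 kb was the one where both HP1a RNAi libraries lay above all controls on either scale. Its median score was -0.04, 0.13 and -0.21 for WT, -0.43 and -0.39 for mock RNAi, and 0.14 and 0.38 for HP1a RNAi. After the arm median was subtracted, the controls ranged from 0.35 to 0.59 and HP1a RNAi stood at 0.72 and 0.70. Su(var)3-9 RNAi replicate 1, which scored -0.68 as deposited, stood at 0.54 on the centred scale, inside the control range. The neighbouring window at 200 to 300 kb showed no such separation, with centred values of 0.50 and 0.34 for HP1a RNAi and 0.38 to 0.71 in the controls.

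At 1200 to 1300 kb, HP1a RNAi was higher mainly through 1 library. The window scored -0.21, -0.15 and -0.39 for WT, -0.36 and -0.57 for mock RNAi, and -0.16 and 0.60 for HP1a RNAi. The centred values were 0.24 to 0.42 in the controls and 0.43 and 0.91 for HP1a RNAi, so that replicate 1 exceeded the highest control by less than 0.01. The third largest centred difference between HP1a and mock RNAi was 0.15 at 1000 to 1100 kb (chr3L:23956370-24056370), where HP1a RNAi stood at 0.39 and 0.21 and mock RNAi at 0.14 and 0.17, with WT between 0.09 and 0.22. The highest window of Su(var)3-9 RNAi replicate 1 was also there, with a centred value of 0.65.

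Of the 3 windows poorest in contacts in the controls, 2 were lower in both HP1a RNAi libraries than in any control once the arm median was removed. At 500 to 600 kb the centred value was -0.13, -0.02 and 0.07 for WT, -0.06 and -0.01 for mock RNAi, and -0.21 and -0.61 for HP1a RNAi. Both HP1a RNAi libraries lay below all 5 controls, and Su(var)3-9 RNAi replicate 1 did as well, at -0.59. On the deposited scale the groups overlapped, with -0.79 and -0.93 for HP1a RNAi and -0.48 to -0.84 in the controls. At 1500 to 1587 kb the centred values were -0.60 and -1.40 for HP1a RNAi against -0.57 to -0.21 in the controls, over 26 pairs. At 1100 to 1200 kb (chr3L:24056370-24156370) HP1a RNAi, with 0.18 and -0.12, was below mock RNAi, with 0.31 and 0.40, but overlapped WT at 0.08 to 0.14.

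**Figure D4:**
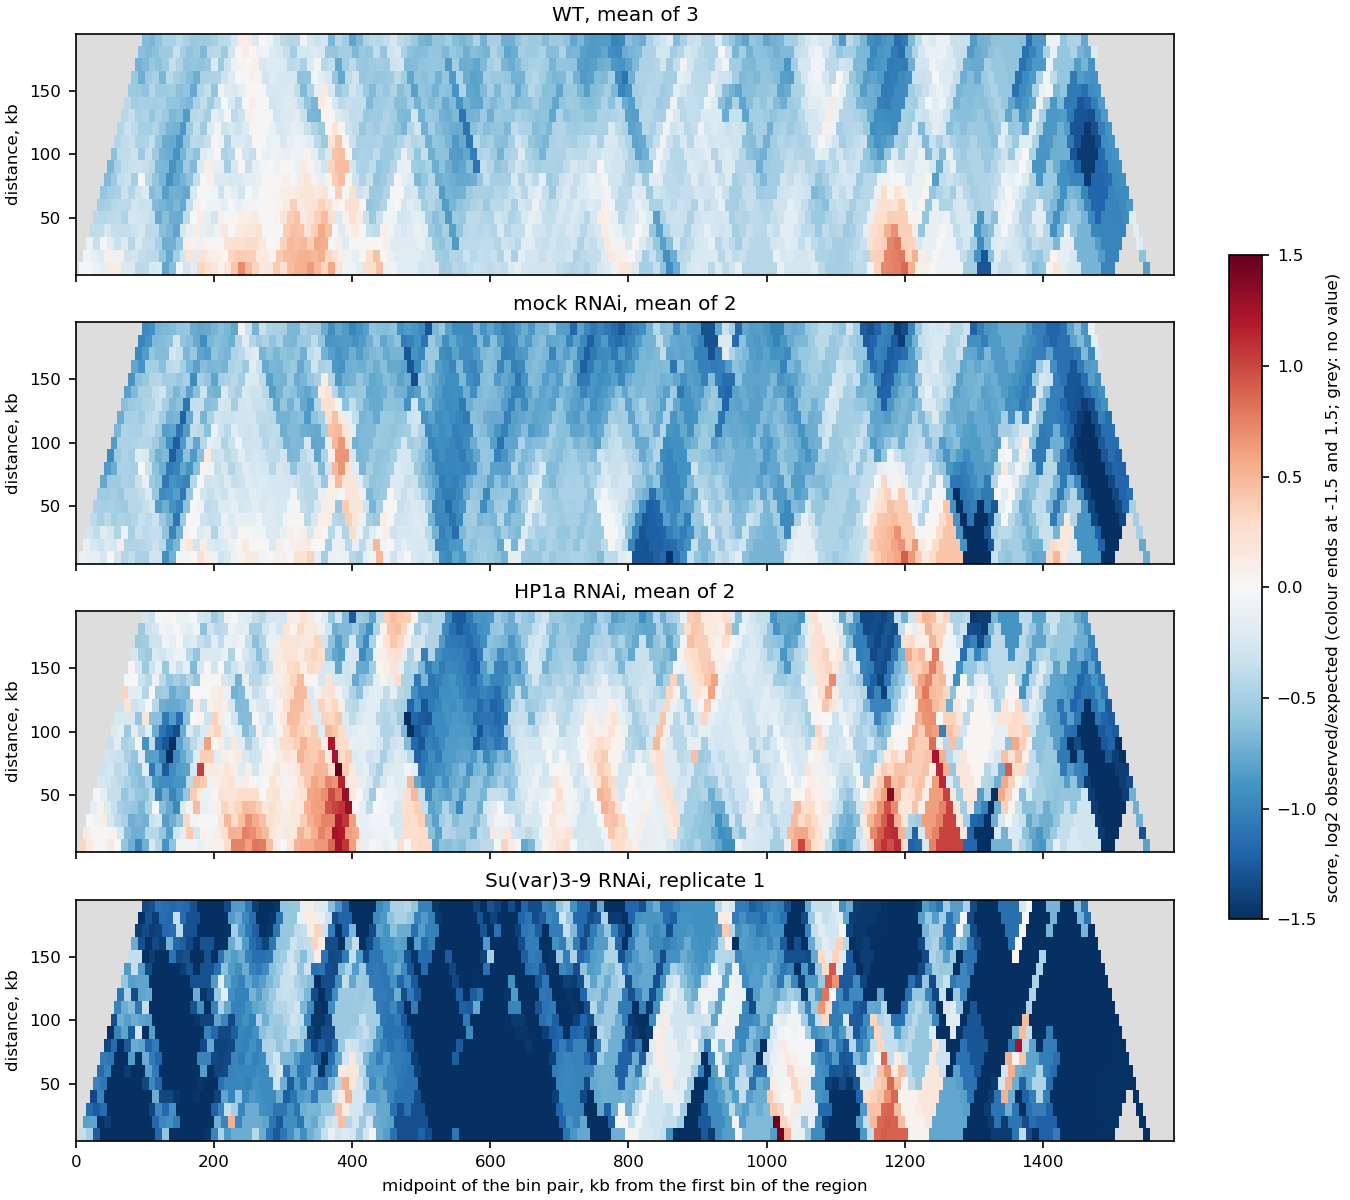
Scores (colour, log2 observed over expected, ending at -1.5 and 1.5; grey marks pairs with no value) of the bin pairs by midpoint along the region (horizontal axis, kb from the first bin) and by distance between the bins (vertical axis, kb), as the mean of 3 WT, 2 mock RNAi and 2 HP1a RNAi libraries and in Su(var)3-9 RNAi replicate 1. The warm patch near 1150 to 1200 kb is present in all 4 maps, while at 1200 to 1230 kb HP1a RNAi is negative, with medians of -1.65 and -0.77. The patch near 1230 to 1290 kb is strong in HP1a RNAi, with medians of 1.14 and 0.87.

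The strongest contacts in the controls sat in 1 small block. The 3 bin pairs with the highest control mean all shared the bin at 1200 kb (chr3L:24156370-24166370). Its contact with the adjacent bin at 1190 kb (chr3L:24146370-24156370) scored 0.47, 1.11 and 0.99 for WT and 0.72 and 1.10 for mock RNAi, a mean of 0.88 ± 0.28 (SD, n = 5). The same pair scored 0.11 and 0.41 for HP1a RNAi, below all controls, and 0.88 for Su(var)3-9 RNAi replicate 1. Its contacts with the bins at 1170 and 1180 kb shared 1 smoothed value in each library, with a control mean of 0.75 ± 0.24 (SD, n = 5), 0.46 and 0.57 for HP1a RNAi and 0.46 for Su(var)3-9 RNAi replicate 1.

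This block and its neighbour were followed further, with limits chosen after the scores had been seen, so that the values are a description. Within 1150 to 1200 kb (chr3L:24106370-24156370, 10 pairs), the median score was 0.52, 0.94 and 0.65 for WT, 0.30 and 0.64 for mock RNAi, 1.26 and 0.73 for HP1a RNAi and 0.88 for Su(var)3-9 RNAi replicate 1. This side of the block was positive in all 8 libraries. Within 1200 to 1230 kb (chr3L:24156370-24186370, 3 pairs), it was 0.26, 0.56 and 0.79 for WT and 0.60 and 0.69 for mock RNAi, but -1.65 and -0.77 for HP1a RNAi. Su(var)3-9 RNAi replicate 1 gave 0.06, so the negative values belonged to HP1a RNAi alone among the 8 libraries. Directly next to it, within 1230 to 1290 kb (chr3L:24186370-24246370, 15 pairs), the medians were 0.17, -0.05 and -0.39 for WT, 0.76 and 0.07 for mock RNAi and 1.14 and 0.87 for HP1a RNAi, with -0.78 for Su(var)3-9 RNAi replicate 1. Here both HP1a RNAi libraries were the highest as deposited, while the 2 mock RNAi libraries differed by more than the closer of them differed from HP1a RNAi. With the arm median subtracted, HP1a RNAi stood at 1.73 and 1.19 and mock RNAi replicate 1 at 1.54, so the groups overlapped.

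Contacts between the 2 blocks, from 1150 to 1230 kb with 1230 to 1290 kb (48 pairs), were positive in both HP1a RNAi libraries. They scored -0.10, 0.01 and -0.39 for WT, -0.11 and -0.56 for mock RNAi, and 0.03 and 0.82 for HP1a RNAi. Replicate 1 of HP1a RNAi was thus only just above the highest control. After the arm median was subtracted it lay inside the control range, with 0.61 against 0.25 to 0.68, and replicate 2 stood at 1.14. Another block, at 310 to 420 kb (chr3L:23266370-23376370, 55 pairs), was set around the bin at 400 kb. That bin was taken from the pairs that limma ranked highest in HP1a RNAi against mock RNAi. The block scored 0.27, 0.22 and 0.23 for WT, -0.30 and 0.19 for mock RNAi, 0.38 and 0.81 for HP1a RNAi and -0.70 for Su(var)3-9 RNAi replicate 1. On the centred scale HP1a RNAi stood at 0.97 and 1.13, and the controls reached 1.01, so the groups overlapped.

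**Figure D5:**
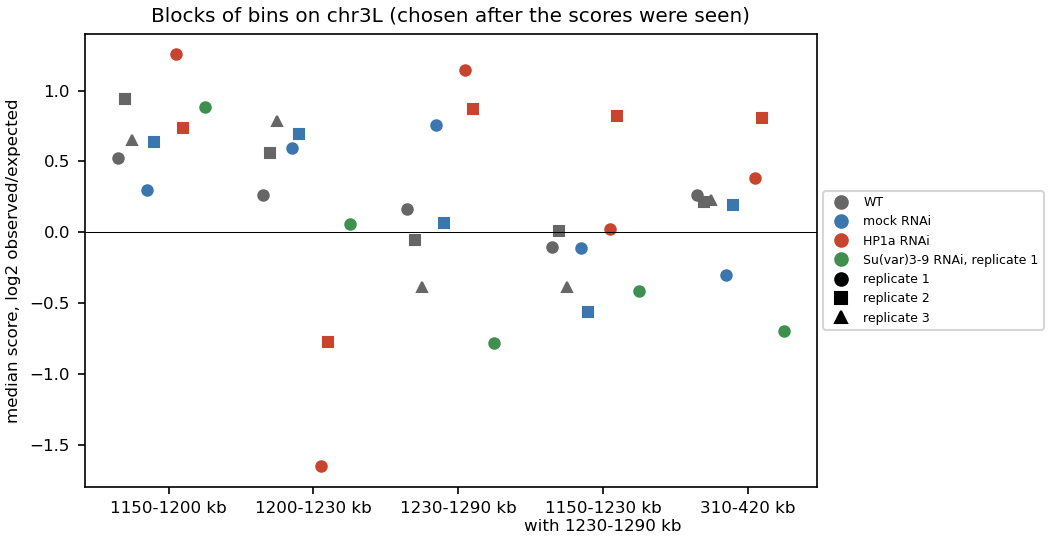
Median score (log2 observed over expected) of blocks of bins, given in kb from the first bin, in each library. Points are libraries, colours are groups and shapes are replicates. At 1200-1230 kb the HP1a RNAi libraries lie at -1.65 and -0.77, below the other 6 libraries, and at 1230-1290 kb they lie highest, at 1.14 and 0.87.

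No single bin pair passed the test in HP1a RNAi against mock RNAi when all libraries shared 1 estimate of the spread. limma was fitted to all arms with the 9 libraries in 1 model, and p-values were adjusted over all bin pairs tested. Of 35307 pairs tested, 0 were called higher and 0 lower (0% in each direction), and so were 0 of the 2764 pairs of this region. The smallest adjusted p was 0.185 by limma. At an unadjusted p under 0.05 there were 470 of the 2764 pairs, or 17.0%, beside 14.7% of all pairs tested. With the arm median subtracted first, 5 pairs were called higher and 5 lower, 0.181% each, beside 0.252% and 0.346% of all pairs. In simulated libraries with the spread of the real ones, 35210 bin pairs and this comparison, limma found 0% of the log2 differences of 1, 68.5% of those of 2 and 93.5% of those of 4. The simulated noise was independent between pairs and 200 pairs were changed, whereas the real scores are smoothed. These rates therefore need not hold for the real scores. A model of the mock and HP1a RNAi libraries alone, which takes the spread from these 4, called 92 pairs higher, or 3.33%, and 3 lower, or 0.109%, beside 4.48% and 0.394% of all pairs. The calls therefore depended on which libraries set the spread, and in neither model did they take a larger share here than over all arms.

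The bin pairs at the head of that list lay in the blocks described above, except 1 between 810 and 1000 kb. For the block at 310 to 420 kb this was fixed in advance, since its limits were set around the bin at 400 kb from this list. The limits of the other blocks were set around the bin at 1200 kb, which the strongest control contacts share, but also after the scores had been seen. The block from 1200 to 1230 kb holds only 3 pairs, and these are the 3 lowest pairs named next. Their place in that block is therefore no separate result. Lowest in HP1a RNAi were the contacts of the bin at 1200 kb with those at 1210 and 1220 kb, which shared 1 smoothed value and scored 0.60 and 0.69 for mock RNAi against -1.65 and -0.77 for HP1a RNAi, a difference of -1.86 ± 0.35 (SE, adjusted p = 0.185 by limma). The contact between 1210 and 1220 kb followed, with -1.54 ± 0.31 (SE, adjusted p = 0.188 by limma). Highest were the contacts of the bin at 400 kb with those at 360 and 370 kb, which scored -0.43 and -0.47 for mock RNAi and 1.37 and 0.77 for HP1a RNAi, a difference of 1.52 ± 0.29 (SE, adjusted p = 0.185 by limma). The contact of 810 with 1000 kb scored -1.31 in both mock RNAi libraries, -0.04 and 0.34 for HP1a RNAi, and -0.20, -0.49 and -0.69 for WT. In that pair mock RNAi stood below WT, so mock RNAi differed there from the untreated cells too.

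Bin pairs where the HP1a RNAi libraries did not overlap the 5 controls were counted as a description. As deposited, 628 of 2764 pairs, or 22.7%, had both HP1a RNAi libraries above all controls, beside 17.5% of all 35218 pairs with a value. Both were below all controls in 189 pairs, or 6.84%, beside 5.4% of all. With the arm median subtracted the counts were 348 above, or 12.6%, beside 14.2% of all, and 413 below, or 14.9%, beside 16.4% of all. These shares were near those of all arms. Within the region they were uneven. Of the 348, 71 had their midpoint at 300 to 400 kb, 53 at 1000 to 1100 kb and 47 at 1200 to 1300 kb, and of the 413, 89 were at 500 to 600 kb and 47 at 1100 to 1200 kb.

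Su(var)3-9 RNAi replicate 1 scored below mock RNAi over much of the region. limma called 353 of 2764 pairs lower, or 12.8%, beside 6.59% of all 35586 pairs tested, and 3 pairs higher, or 0.109%, beside 0.66% of all. For all but 38 of these pairs the group was this 1 library, which the model assumed to vary like the other groups. With either mock RNAi library left out, 0 pairs were called, as with the 2 groups alone and with the replicate block, and the adjusted p-values below come from the model of all 9 libraries. With the arm median subtracted, 376 pairs were called lower, or 13.6%, beside 11.5% of all, and 188 were called higher, or 6.8%, beside 9.4% of all. The lower calls were thus about as many on both scales, while the higher calls were few as deposited. The contact of the bins at 80 and 90 kb had the smallest adjusted p. It scored -0.39, -0.40 and -0.43 for WT, -0.48 and -0.49 for mock RNAi, -0.93 and -1.03 for HP1a RNAi and -3.42 for Su(var)3-9 RNAi replicate 1, a difference of -2.94 ± 0.28 (SE, adjusted p = 0.0182 by limma). Next were the contacts of the bin at 1290 kb with those at 1380 and 1390 kb, at -3.18 against -0.24 and 0.14 for mock RNAi. The 3 pairs called higher included the contacts of the bin at 1020 kb with those at 1000 and 1010 kb, which scored 1.45 against -0.52 and -0.86 for mock RNAi, a difference of 2.14 ± 0.39 (SE, adjusted p = 0.0305 by limma). The third was the contact of 1320 with 1400 kb, at 1.24 against 0.00 and -0.09 for mock RNAi.

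Replicate 2 of Su(var)3-9 RNAi did not show the low level of replicate 1 in the pairs that it covered. Over its 38 pairs the median score was -0.66, with -1.02 in replicate 1, -0.64 and -0.58 for mock RNAi, -0.39, -0.50 and -0.63 for WT and -0.10 and -0.24 for HP1a RNAi. Replicate 2 thus stood 0.36 above replicate 1 and within 0.1 of both mock RNAi libraries. The 2 HP1a RNAi libraries were the highest of the 9 over these 38 pairs.

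The controls were set against each other in the same way. Between mock RNAi and WT, limma called 0 of 35415 pairs in each direction (0%) and 0 of 2765 in the region, with a smallest adjusted p of 0.818. At an unadjusted p under 0.05 there were 105 of the 2765 pairs, or 3.80%, beside 3.63% of all pairs tested. The pair with the smallest p, that of the bins at 800 and 840 kb, scored -0.07, 0.13 and -0.42 for WT and -1.11 and -1.39 for mock RNAi. The contact of 1300 with 1310 kb and with 1320 kb, at 1 smoothed value, scored -1.57, -1.47 and -0.79 for WT and -2.74 and -2.49 for mock RNAi. Pairs higher in mock RNAi were led by 530 with 620 kb, which scored -1.21, -0.89 and -1.23 for WT and -0.72 and -0.84 for mock RNAi.

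Places where contacts were interrupted were sought by setting the pairs that cross a bin edge against the pairs on either side of it, at equal distances up to 100 kb each way. The 5 lowest edges were taken one after another, each at least 100 kb from those already taken, so that lower neighbours of an edge were left out. In the controls these were at 1310, 140, 1490, 540 and 850 kb, with means from -0.61 ± 0.33 (SD, n = 5) to -0.29 ± 0.15. By the same rule they were at 1490, 1310, 1120, 140 and 420 kb in HP1a RNAi, and 3 of the 5 edges were in both lists. The edge at 1490 kb has a thinly filled side, since 55 of the 81 pairs at 1500 to 1600 kb lacked a value. Su(var)3-9 RNAi replicate 1 had 0.70 at that edge. At 1310 kb the value was -0.48, -0.44 and -0.22 for WT, -1.04 and -0.86 for mock RNAi and -1.08 and -0.73 for HP1a RNAi. At 850 kb all 5 controls were negative, from -0.46 to -0.07, whereas HP1a RNAi had 0.16 and 0.18 and Su(var)3-9 RNAi replicate 1 had 0.55. Contacts across this edge were therefore more frequent than on its sides in these 3 libraries. At 1120 kb the reverse was found, with -0.62 and -0.69 for HP1a RNAi, -1.14 for Su(var)3-9 RNAi replicate 1 and -0.16 to -0.48 in the controls. These edges were picked for their values and were not tested.

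The pattern over the region was partly shared between groups. Pearson's r over the bin pairs, which share smoothing and distance, was 0.69 on average between the 5 controls (0.59 to 0.77, 10 library pairs) and 0.65 between the 2 HP1a RNAi libraries. Between HP1a RNAi and controls it was 0.56 (0.47 to 0.64), and between Su(var)3-9 RNAi replicate 1 and controls 0.40 (0.34 to 0.52). With the mean of each distance removed, the 4 values were 0.66, 0.65, 0.55 and 0.41. The order of these values was kept. The bin pairs are not independent, and these correlations are a description.

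Genes of the region with dm3 positions at hand were RpL10, AGO3 and CG17698. RpL10 encodes a protein of the large ribosomal subunit. Contacts within 200 kb of its 2 bins (120 to 140 kb, chr3L:23076370-23096370, 62 pairs) had medians of -0.33, -0.29 and -0.59 for WT, -0.54 and -0.52 for mock RNAi and -0.19 and -0.55 for HP1a RNAi, so the 2 HP1a RNAi libraries enclosed all 5 controls except WT replicate 3. AGO3 encodes an Argonaute protein of the Piwi clade, which acts in piRNA silencing of transposons. Over its 14 bins (590 to 730 kb, chr3L:23546370-23686370, 441 pairs) the medians were -0.48, -0.36 and -0.70 for WT, -0.78 and -0.67 for mock RNAi, and -0.62 and -0.39 for HP1a RNAi, with -1.52 for Su(var)3-9 RNAi replicate 1. With the arm median subtracted, AGO3 stood at -0.03 and -0.07 for HP1a RNAi, below the controls at 0.00 to 0.15, and at -0.30 for Su(var)3-9 RNAi replicate 1. CG17698 (770 to 790 kb, chr3L:23726370-23746370, 75 pairs) gave -0.45, -0.30 and -0.52 for WT, -0.65 and -0.66 for mock RNAi and -0.50 and 0.06 for HP1a RNAi, the 2 HP1a RNAi libraries differing by more than the WT and mock RNAi means.

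Nuclear matrix-associated regions, the DNA that stays with the nuclear matrix after extraction, lay in 39 of the 159 bins. Contacts between 2 such bins (153 pairs) differed from contacts with neither end in one (1613 pairs) by -0.03 to 0.06 in the controls. The difference was 0.09 and 0.13 for HP1a RNAi and 0.25 for Su(var)3-9 RNAi replicate 1. After removal of the mean at each distance it was 0.02 and 0.12 for HP1a RNAi, of which the first lay inside the control range of -0.05 to 0.03, and 0.22 for Su(var)3-9 RNAi replicate 1.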

How the data were processed

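9 5C libraries of S2 cells (3 untreated, the rest 2 per RNAi group) were grouped by the deposited labels. Per bin pair, the deposited value is a log2 score of observed over expected contacts. The authors had trimmed and filtered the reads, mapped them with Bowtie2 to primer combinations designed on dm3, scaled them to the mapped reads, normalized them to the expected frequency with HiTC and the uncrosslinked control, and binned (10 kb, 5 kb on chrX) and smoothed them by the median in my5C. Versions of these tools were not given in the sources used here. Smoothing makes neighbouring scores alike and lowers local extremes. The uncrosslinked control library, contacts between arms, RNA-seq and ChIP were not analysed here.

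Scores of exactly 0 were set to missing, and the values on both sides of the diagonal were averaged, or the only one kept. In each library the median, the median minus that of all chr3L pairs, near (under 50 kb) minus far (150 kb or more) medians, and the percentage above 0 were computed. Libraries, not bin pairs, were the replicates in two-sided exact permutation tests. limma was fitted to all arms with 4 group means and Benjamini-Hochberg adjustment at 0.05, on pairs scored in all libraries of both groups, except that Su(var)3-9 RNAi needed replicate 1 only. It was tested on simulated data with 200 changed pairs and independent noise. Named windows were the 3 highest and 3 lowest in the controls and the 3 largest centred differences between HP1a and mock RNAi in each direction. Named pairs were the 3 highest in the controls and, per limma comparison, the 3 of smallest adjusted p higher and lower, where all libraries moved alike. The pairs, windows and tests were chosen with earlier results of these data known. Crossing edges (the 5 lowest, at least 100 kb apart), blocks, gene and matrix bins, spread, non-overlap counts and the comparisons with longer contacts and chr2L were added after the scores were seen. Gene positions came from the study's list of genes changed in dMES-4 knockdown, and matrix region positions and primer sequences from its other supplementary tables. Models were fitted with limma 3.58.1 in R 4.3.3. All else was run in Python 3.11.15, with pandas 2.3.3, scipy 1.17.1, numpy 2.4.6 and, for plots, matplotlib 3.10.9.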

Additional observations from a re-analysis of the deposited data

How the results depend on the processing

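Alternatives covered the mean, zeros kept, closer or fewer pairs, all bins of the arm, other centring and each library left out. Leaving out 1 library gave 0.29 to 0.39 for the median of HP1a RNAi minus mock RNAi, 0.17 to 0.27 against all controls, -0.27 to -0.15 for mock RNAi minus WT, -0.077 to 0.099 for the centred median, -0.044 to 0.014 for near minus far, 11.1 to 24.3 for the percentage above 0 and 0.18 to 0.23 for the SD. The centred difference was -0.077 without HP1a RNAi replicate 1, and near minus far was 0.014 without HP1a RNAi replicate 2, both with the sign turned. Subtracting the arm median turned HP1a RNAi minus mock RNAi to -0.0096. The centred difference was -0.013 with means and -0.0020 with zeros kept. Counted above the arm median, the percentage differed by -6.43 points. For pairs under 100 kb, near minus far could not be computed, since no far pairs were left.

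limma called 10 pairs in HP1a RNAi with the arm median subtracted (0.362%, beside 0.598% of all pairs) and 95 with the 2 groups alone (3.44%, beside 4.87%), in place of 0. In Su(var)3-9 RNAi, in place of 356 (12.9%, beside 7.25%), it called 564 with the arm median subtracted (20.4%, beside 20.9%). It called 0 with the 2 groups alone and 0 with the replicate block. Treating scores of 0 as values left 10 calls (0.353%, beside 1.12%), and the direction turned. All 10 were higher, whereas 353 of the 356 were lower. The median log2 difference of the region's pairs from mock RNAi was 0.015 in that setting, beside -0.51 in the main one. There, replicate 2 entered as 0 in the 2793 pairs of the region that it does not cover. These are missing values set to 0, so the turn is no second reading of the contacts. Leaving out 1 library gave 0 to 804, with 0 without either mock RNAi library and 804 without replicate 2 (29.1%, beside 25.9%). Without replicate 1, the group was replicate 2 alone, with 38 pairs of the region. Their median log2 difference from mock RNAi was -0.066, beside -0.19 over all pairs, which says nothing of the region's other pairs. The cause was not tested. In HP1a RNAi, leaving out any 1 library gave 0 calls, as did mock RNAi against WT in every setting. Replicate numbers do not pair these libraries by label. Replicate differences of mock and HP1a RNAi correlated at 0.002 over all arms. For HP1a RNAi the replicate block gave 0 limma calls. It gave 0.34 for the median of HP1a RNAi minus mock RNAi, which equals the difference of the group means by arithmetic and checks nothing. Replicate differences of mock and Su(var)3-9 RNAi correlated at -0.34, and the crossed pairing, added after seeing the data, also called 0.

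Groups of 2 and 3 libraries set the precision, and the exact permutation tests could not reach 0.05. The depth per score is not known from the files, and a difference that was not seen is not shown to be absent. Su(var)3-9 RNAi rests on 1 library here, and depletion and library cannot be told apart for it.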
